A study of Mus musculus with 18 samples.

Results

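The genes described here were 9 interferon-stimulated genes, Isg15, Usp18, Ifit1, Ifit3, Rsad2, Oasl2, Bst2, Irf7 and Ifi44, taken by name from the 22657 genes of the table. The choice was made with earlier results of these data known. All 9 were in the table. Of these, 8 reached 1 FPKM in 3 or more samples and were among the 15790 genes tested, while Ifi44 did not. FPKM is the number of sequenced fragments of a gene scaled by the length of its transcript and by the mapped fragments of the sample, so levels can be compared between genes of different length.

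RNA was measured in 18 samples of cultured testes from ICR mice, 3 for each of 6 groups. Mice without busulfan gave A0, A10 and A50, whose numbers are the μg/mL of alginate oligosaccharides (AOS) in the culture medium, short sugars obtained from seaweed alginate. Mice that had received a single busulfan injection (40 μg/g body weight) gave B0, BA10 and BA50, cultured at the same AOS concentrations. Busulfan alkylates DNA and destroys proliferating germ cells. Injection was at 3 weeks of age, all testes were taken 2 weeks later, and all cultures lasted 48 h in medium with 10% fetal bovine serum. The methods give 6 testes per treatment and 3 repeats, and the cultured tissue no longer received circulating immune cells. The labels and methods do not say whether the 3 samples of a group came from separate animals, so a p-value here measures the spread between these samples, which may be in part technical. The series' design text gives the AOS doses as mg/kg, and the unit of the labels is used here.

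Interferons are secreted proteins that warn cells of viral or foreign nucleic acid. Type I interferons bind the receptor made of IFNAR1 and IFNAR2, the kinases JAK1 and TYK2 then pass the signal on, and interferon-stimulated response elements in front of the target genes are bound. In the testis, macrophages, Sertoli cells and Leydig cells are known to respond to interferon.

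The 9 genes cover several steps of that response. Isg15 encodes a ubiquitin-like protein that is attached to other proteins, and Usp18 encodes the protease that removes it and also restrains the receptor. Ifit1 and Ifit3 belong to the same family, and Ifit1 encodes a protein that binds foreign RNA. Rsad2 (viperin) makes a nucleotide that stops viral polymerases, Oasl2 belongs to the oligoadenylate synthetase family, and Bst2 (tetherin) holds budding virus particles on the cell surface. Irf7 is the transcription factor that amplifies type I interferon production, and Ifi44 is an interferon-induced protein of less certain function.

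The response element was looked for in RefSeq promoter windows of the GRCm38.p6 build, which run from 250 bases before a transcription start to 50 bases after it. Its core was written as GAAANNGAAA and searched on both strands, and it was the only motif searched. A window was given for 8 of the genes, all but Usp18. The core was present in 5 of these 8, against 3.44% of all 32851 windows and 3.99% of the 27025 genes with a window. The stretches that hold it are shown because such letters are the known core of the response element, and a match here is of letters only. Capitals mark the core, read along the gene's own strand, where TTTCNNTTTC is the same core on the opposite strand, and 20 bases are given on either side.
Isg15, chr4:156200855-156200916, minus strand: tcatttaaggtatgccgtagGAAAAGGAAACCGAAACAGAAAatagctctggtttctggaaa
Ifit1, chr19:34640765-34640833, plus strand: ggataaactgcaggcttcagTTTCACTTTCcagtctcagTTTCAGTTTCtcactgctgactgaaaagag
Ifit3, chr19:34583353-34583436, plus strand: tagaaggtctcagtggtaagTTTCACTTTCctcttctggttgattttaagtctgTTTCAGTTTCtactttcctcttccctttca
Rsad2, chr12:26456543-26456592, minus strand: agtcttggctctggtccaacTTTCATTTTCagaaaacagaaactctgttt
Bst2, chr8:71537567-71537622, minus strand: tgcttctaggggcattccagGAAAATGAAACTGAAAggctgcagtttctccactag

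Isg15 held 3 overlapping copies of the core, whose first bases lay 78, 72 and 66 bases before the start. Bst2 held 2 overlapping copies that began 130 and 124 bases before the start. Ifit1 and Ifit3 each held 2 separate copies with the same letters on the opposite strand, GAAAGTGAAA and GAAACTGAAA, farther from the start in Ifit3 (156 and 122 bases) than in Ifit1 (104 and 85 bases). Rsad2 held a single copy, 120 bases before the start. None of the 5 stretches overlapped an exon of the GENCODE annotation, although the Ifit3 stretch lies inside the longer gene span that RefSeq gives. Oasl2, Irf7 and Ifi44 had no match of these letters in their windows. Among the 34 other type I interferon-stimulated genes of a fixed list that had a window, 15 held the core.

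The 9 genes differed widely in level. Bst2 was highest, with a mean of 33.1 FPKM over the 18 samples (range 17.4 to 56.1), and it was above every other gene of the set in all 18. Oasl2 followed at 6.63 FPKM (3.66 to 10.7), Irf7 at 4.67 FPKM (2.28 to 8.95) and Isg15 at 3.90 FPKM (1.94 to 5.97). Oasl2 was above Irf7 in 15 of 18 samples, Irf7 above Isg15 in 16, and Isg15 above Usp18 in 18. The next 4 genes lay close together. Usp18 averaged 1.13 FPKM, Ifit3 1.12 FPKM, Rsad2 0.976 FPKM and Ifit1 0.883 FPKM. Usp18 was above Ifit3 in 11 samples, Ifit3 above Rsad2 in 9 and Rsad2 above Ifit1 in 13, so these neighbours did not hold a fixed order. Ifi44 was lowest, at 0.413 FPKM, and never reached 1 FPKM (0.13 to 0.96).

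The plot of levels by group shows these values with the spread of each group.

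**Figure D1:**
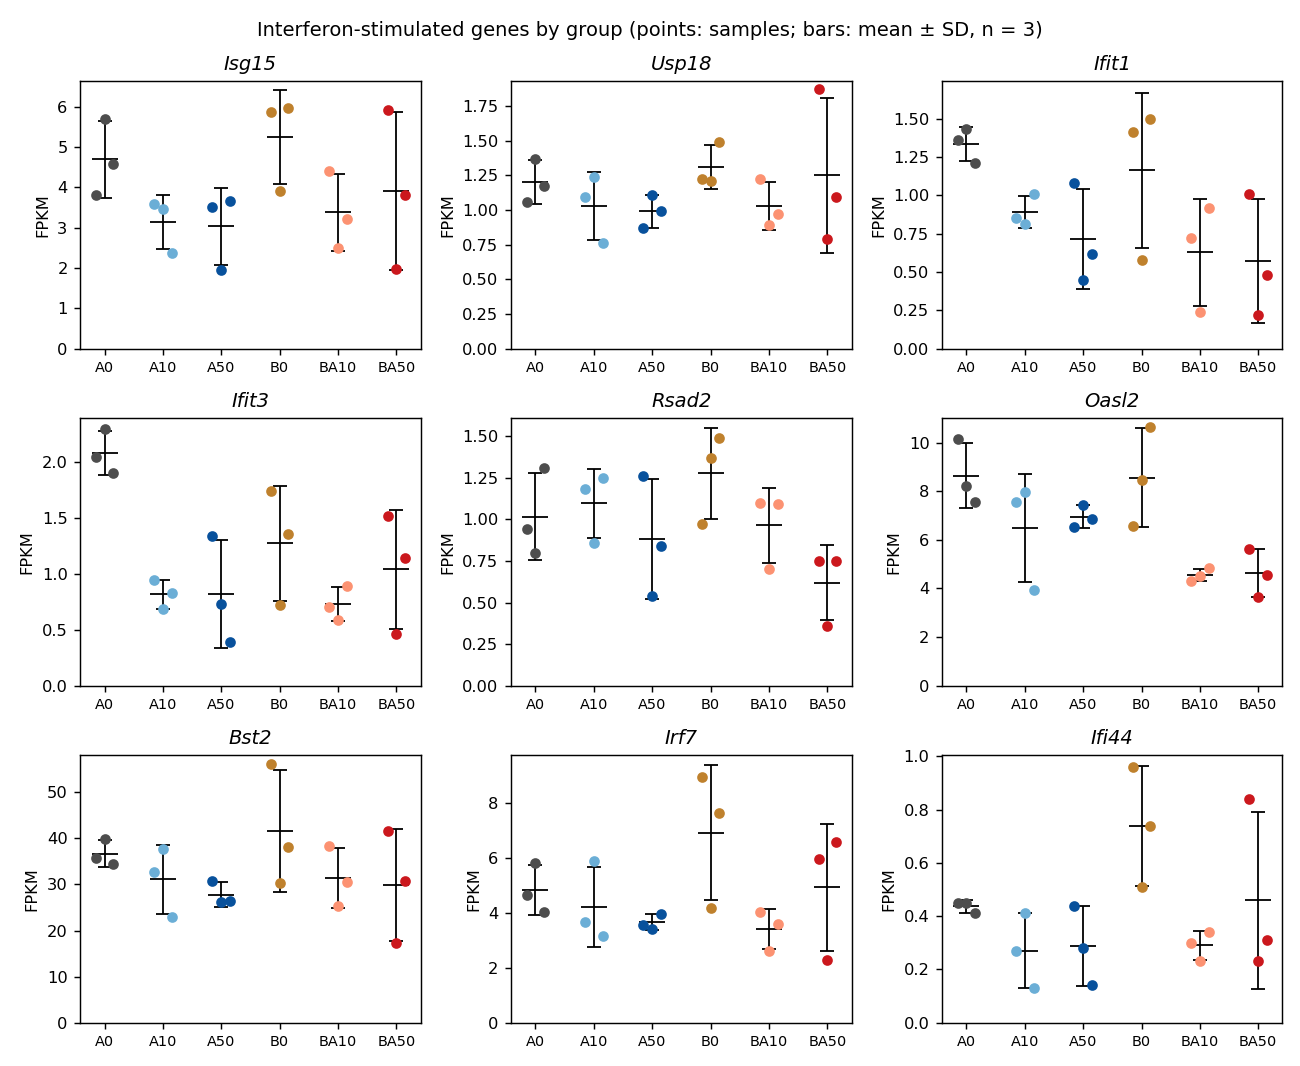
FPKM (vertical axes, each from 0) of the 9 interferon-stimulated genes in the 6 groups of cultured testes. Points are the 3 samples of a group in order of replicate number, and black bars are the group mean with its SD. Oasl2 in BA10 and BA50 lies below every B0 sample, and Ifit3 in A10 and A50 lies below every A0 sample, while BA50 replicate 2 is the lowest BA50 sample for all 9 genes.

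The samples differed in ways that the groups did not account for. Replicates correlated across genes (Pearson's r of log2(FPKM + 1)) at between 0.945 and 0.988 except in A10, where replicate 3 reached only 0.929 and 0.941 with the other two. That sample was the lowest of A10 for 6 of the 9 genes. BA50 replicate 2 was the lowest of BA50 for 9 of 9, and BA10 replicate 2 the lowest of BA10 for 8 of 9. BA50 replicate 1 was the highest of BA50 for 8 of 9. B0 replicate 2 was likewise the lowest of B0 for 7 of 9, so that replicate 2 was low in all 3 busulfan groups. The lowest sample of A0 was replicate 3 (6 of 9) and that of A50 replicate 2 (5 of 9). A0 replicate 2 was the highest of A0 for 7 of 9. The AOS average and the comparisons of A10 with A0 and BA50 with B0 are given below also without A10 replicate 3 or BA50 replicate 2. Spermatocyte markers told the busulfan groups apart as labelled. The summed FPKM of the 5 spermatocyte markers was between 212.8 and 294.7 in A0, A10 and A50. It was between 23.1 and 50.2 in B0, BA10 and BA50. Spermatid markers did not: the 7 summed to 2417 to 4264 FPKM in A0 and 2273 to 3360 in B0. They summed to 3166 to 4073 FPKM in A50 and 4985 to 10850 in BA50. Leydig and Sertoli cell markers were present in every sample.

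Testes cultured with AOS had lower values of all 8 tested genes than testes cultured without it, although none passed the adjusted test. Averaged over both concentrations and over mice with and without busulfan, the median log2 change was -0.42, and on this scale the largest were Oasl2 (-0.55), Ifit3 (-0.52) and Isg15 (-0.48). Over all 15790 genes tested, 60.2% were lower and the median log2 change was -0.0633. No gene of the set passed an adjusted p of 0.05 or the stricter limits of the study's methods (adjusted p of at most 0.001 together with a log2 change of 1 or more in either direction), and the same was so of nearly all genes, with 0.0443% past adjusted p under 0.05 and 0.0% past the stricter limits. At an unadjusted p under 0.05, 6 of 8 were lower, against 18.2% of all genes tested. Values are from limma on log2(FPKM + 1), which understates the change of genes with low FPKM. The study's methods apply the stricter limits to a count-based test, so numbers of genes past them here cannot be set against the study's own.

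Oasl2, of the oligoadenylate synthetase family, had the largest averaged value with a pseudocount of 1. With a pseudocount of 0.1 the log2 changes were larger for Ifit3 (-0.90) and Ifit1 (-0.82) than for Oasl2 (-0.63), so the order of these genes depends on that choice. Its FPKM was 10.1, 8.23 and 7.55 in A0, 7.54, 7.97 and 3.93 in A10, and 6.52, 7.45 and 6.84 in A50. After busulfan it was 6.57, 8.46 and 10.7 in B0, 4.31, 4.52 and 4.82 in BA10, and 5.63, 3.66 and 4.57 in BA50. All 12 samples with AOS were below the mean of their own control group. After busulfan the groups with and without AOS did not overlap at either concentration, and without busulfan they did not overlap at 50 μg/mL but did at 10 μg/mL. The averaged log2 change was -0.55 (SE 0.129, 95% interval -0.825 to -0.275), with a limma adjusted p of 0.0527. An exact permutation test that exchanged samples within each busulfan level gave a two-sided p of 0.000283 over 7056 divisions, unadjusted for the 9 genes tested this way. That test was added after seeing the data.

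Ifit3, of the same family as Ifit1, had its clearest difference in testes without busulfan. Its FPKM was 2.04, 2.29 and 1.90 in A0, 0.94, 0.68 and 0.83 in A10, and 1.34, 0.73 and 0.39 in A50, so that every A10 and A50 sample was below every A0 sample. After busulfan it was 1.74, 0.72 and 1.35 in B0, 0.70, 0.59 and 0.89 in BA10, and 1.51, 0.46 and 1.14 in BA50, and these groups overlapped. The averaged log2 change was -0.52 (SE 0.134, 95% interval -0.808 to -0.235, limma adjusted p = 0.0584, exact permutation p = 0.00354). Ifit3b is a close copy of Ifit3, reads could be shared between the pair, and the Ifit3 values are uncertain to that extent. Ifit3b itself was at 0.513 ± 0.0751 FPKM in A0 and 0.240 ± 0.144 in A10 (SD, n = 3).

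Isg15, the ubiquitin-like modifier, was at 3.80, 5.70 and 4.59 FPKM in A0, at 3.59, 3.47 and 2.36 in A10 and at 3.50, 1.94 and 3.65 in A50. In B0 it was 5.87, 3.91 and 5.97, in BA10 4.41, 2.50 and 3.22, and in BA50 5.91, 1.98 and 3.82. The A10 and A50 samples were all below the A0 samples, while BA10 and BA50 overlapped B0. Its averaged log2 change was -0.48 (SE 0.171, limma adjusted p = 0.0929, exact permutation p = 0.0110).

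Ifit1 was below the mean of its control group in all 12 samples with AOS. Its mean was 1.33 ± 0.112 FPKM in A0, 0.890 ± 0.106 in A10 and 0.717 ± 0.326 in A50 (SD, n = 3). It was 1.16 ± 0.507 in B0, 0.627 ± 0.350 in BA10 and 0.570 ± 0.403 in BA50. The averaged log2 change was -0.41 (SE 0.135), with a limma adjusted p of 0.0788 and an exact permutation p of 0.00666.

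Irf7, which encodes the transcription factor that amplifies interferon production, was at 4.66, 5.84 and 4.03 FPKM in A0, at 3.66, 5.88 and 3.15 in A10 and at 3.58, 3.41 and 3.98 in A50. The busulfan groups spread more widely, with 8.95, 4.19 and 7.65 in B0, 4.04, 2.62 and 3.60 in BA10, and 5.96, 2.28 and 6.57 in BA50. A50 lay just below A0 and BA10 just below B0, and the other pairs overlapped. The averaged log2 change was -0.44 (SE 0.185, limma adjusted p = 0.123, exact permutation p = 0.0383).

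Bst2, the surface protein that tethers viruses, was at 35.7, 40.0 and 34.4 FPKM in A0, at 32.7, 37.7 and 22.9 in A10 and at 30.9, 26.2 and 26.3 in A50. It was at 56.1, 30.3 and 38.1 FPKM in B0, at 38.4, 25.4 and 30.6 in BA10 and at 41.7, 17.4 and 30.7 in BA50. Only A50 was fully below its control group. The averaged log2 change was -0.38 (SE 0.170, limma adjusted p = 0.140, exact permutation p = 0.0376).

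Rsad2 and Usp18 gave the smallest values. Rsad2 had an averaged log2 change of -0.19 (SE 0.103, limma adjusted p = 0.193, exact permutation p = 0.118), and 9 of 12 AOS samples were below their control mean. Usp18 had -0.13 (SE 0.0946, limma adjusted p = 0.315, exact permutation p = 0.142), with 10 of 12 below. The 95% interval reached from -0.409 to 0.0298 for Rsad2 and from -0.331 to 0.0735 for Usp18, so both intervals held 0. Ifi44, fitted without a filter on low values, had an averaged log2 change of -0.26 (SE 0.0841, limma adjusted p = 0.0969, exact permutation p = 0.00935).

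**Figure D2:**
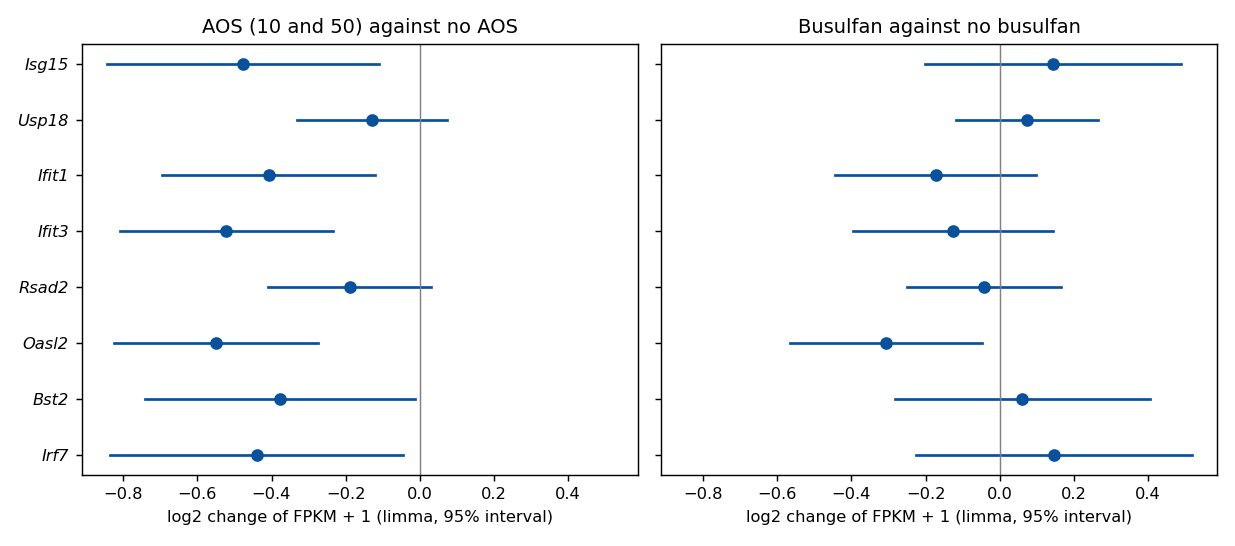
Log2 change of FPKM + 1 (horizontal axes) of the 8 tested genes for AOS against no AOS (left) and busulfan against no busulfan (right). Points are limma estimates over the 18 samples and lines their unadjusted 95% intervals. All 8 points lie below 0 for AOS, from -0.55 (Oasl2) to -0.13 (Usp18), whereas for busulfan 4 lie below 0 and 4 above.

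The 4 comparisons behind that average share control samples in pairs, A0 for A10 and A50 and B0 for BA10 and BA50. In A10 against A0, 7 of 8 tested genes were lower, and Ifit3 alone had an unadjusted p under 0.05 (log2 change -0.76, SE 0.219, limma adjusted p = 0.322; 10.7% of all genes were lower at that limit). In A50 against A0, 8 of 8 were lower, and again Ifit3 alone had an unadjusted p under 0.05 (log2 change -0.79, limma adjusted p = 0.208; background 5.8%). In BA10 against B0, 8 of 8 were lower, and Oasl2 (-0.76, limma adjusted p = 0.745) and Irf7 (-0.80, limma adjusted p = 0.749) had an unadjusted p under 0.05 (background 3.17%). In BA50 against B0, 8 of 8 were lower, and Oasl2 (-0.76, limma adjusted p = 0.104) and Rsad2 (-0.49, limma adjusted p = 0.124) had an unadjusted p under 0.05 (background 11.6%). No gene of the set passed the stricter limits in any of the 4, where 0.0% of all genes did.

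Separation of the groups gave a similar picture. All A50 samples lay below all A0 samples for 6 of the 9 genes (Isg15, Ifit1, Ifit3, Irf7, Oasl2 and Bst2), against 23.2% of all genes tested. For A10 and A0 it was 3 of 9 (Isg15, Ifit1 and Ifit3), against 12.2%. For BA10 and B0 it was 3 of 9 (Irf7, Oasl2 and Ifi44), against 7.75%, and for BA50 and B0 it was 2 of 9 (Oasl2 and Rsad2), against 13.5%. No gene of the set lay fully above its controls in any of these comparisons. An exact permutation test of 3 samples against 3 cannot go below p = 0.1, so none of these comparisons could pass 0.05 in that test.

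The response to AOS was not shown to differ between testes with and without busulfan. The difference between the AOS change after busulfan and that without it had no unadjusted p under 0.05 for any of the 8 genes at 10 or 50 μg/mL, and 0.0% of all genes passed the stricter limits. Ifit3 had the lowest p at 50 μg/mL (difference in log2 change 0.62, SE 0.310, limma adjusted p = 0.832), followed by Oasl2 (-0.49, SE 0.297, limma adjusted p = 0.898). At 10 μg/mL, Irf7 had the lowest p (-0.62, SE 0.427, limma adjusted p = 0.910).

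Leaving out A10 replicate 3 gave a median log2 change of -0.41 over the 8 genes in the AOS average, with 4 of 8 lower at an unadjusted p under 0.05 against 17.3% of all genes. Leaving out BA50 replicate 2 gave -0.36, with 5 of 8 against 14.5%. In A10 against A0 without A10 replicate 3, 7 of 8 were still lower, but the log2 change was -0.77 for Ifit3, -0.35 for Ifit1 and -0.32 for Isg15 and between -0.13 (Oasl2) and 0.00583 (Rsad2) for the others, with Irf7 at -0.034 and Bst2 at -0.060. In BA50 against B0 without BA50 replicate 2, 6 of 8 were lower, and Ifit3 (0.056) and Usp18 (0.089) were higher. There Oasl2 was at -0.63, Rsad2, no longer past an unadjusted p of 0.05, at -0.37 and Ifit1 at -0.30, while Bst2 went from -0.50 to -0.16, Isg15 from -0.41 to -0.097 and Irf7 from -0.46 to -0.075. The lower values of the last 3 genes in BA50 therefore rested in large part on that sample. Without BA50 replicate 1, 4 of the 8 genes (Isg15, Ifit1, Ifit3 and Oasl2) passed a limma adjusted p of 0.05, but so did 15.9% of all genes.

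Markers of some other cell types moved with the AOS comparison. The summed FPKM of 11 macrophage markers ran from 624.2 to 872.5 in A0, from 286.0 to 704.7 in A10, from 526.6 to 567.9 in A50, from 547.2 to 972.1 in B0, from 529.4 to 833.8 in BA10 and from 300.7 to 747.0 in BA50. All 11 were lower in the AOS average (median log2 change -0.52), 7 at an unadjusted p under 0.05 and none at a limma adjusted p under 0.05. BA10 replicate 2 and BA50 replicate 2, where nearly all genes of the set were lowest, were the lowest of their groups for 11 of 11 macrophage markers, A10 replicate 3 was for 9 of 11 and B0 replicate 2 for 8 of 11. Other samples did not follow this: A0 replicate 3, the lowest of A0 for 6 of the 9 genes, was the highest for 8 of 11 macrophage markers, and A50 replicate 2, the lowest of A50 for 5 of 9, was the lowest for only 1 of 11. All 7 spermatid markers were higher in the AOS average (median log2 change 0.55, 5 at an unadjusted p under 0.05), as were all 5 spermatocyte markers (0.32, 3 at that limit), and none passed adjustment. The spermatid markers summed to 3360 FPKM in B0 replicate 2, 6555 in BA10 replicate 2 and 10850 in BA50 replicate 2, each the highest of its group. All 5 endothelial markers were lower at an unadjusted p under 0.05 (median log2 change -0.38), and none passed adjustment. Of all 15790 genes tested, 2874 were lower and 2415 higher at that unadjusted limit. In B0, 5 fat cell markers summed to between 47.0 and 311.5 FPKM, against 2.88 to 16.2 FPKM in the other groups, and 3 keratins of simple epithelium to between 57.1 and 153.4 FPKM, against 5.38 to 19.0 FPKM. In the AOS average, 1 of the 5 fat cell markers and 2 of the 3 keratins were lower at a limma adjusted p under 0.05. No tested Leydig or Sertoli cell marker passed an unadjusted p of 0.05 there. The part of macrophages, endothelial cells, fat cells, epithelium and germ cells in the result was not tested. In bulk tissue, fewer cells of a type and less RNA per cell cannot be told apart.

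Plasmacytoid dendritic cells are known for making much type I interferon, and 2 of their 4 listed markers were near 0, with at most 0.01 FPKM for Siglech and 0.06 FPKM for Ccr9 in any sample. The other 2, Cox6a2 and Klk1, are also made by other cells, and the 4 together summed to between 1.27 and 6.38 FPKM. Of the other immune lists, 4 B cell markers summed to at most 0.85 FPKM and 6 T and NK cell markers to between 2.65 and 8.06 FPKM. The 4 granulocyte markers summed to between 0.91 and 5.79 FPKM. Only 1 of them was tested, and it was higher in the busulfan average at a limma adjusted p under 0.05 (log2 change 0.654).

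**Figure D3:**
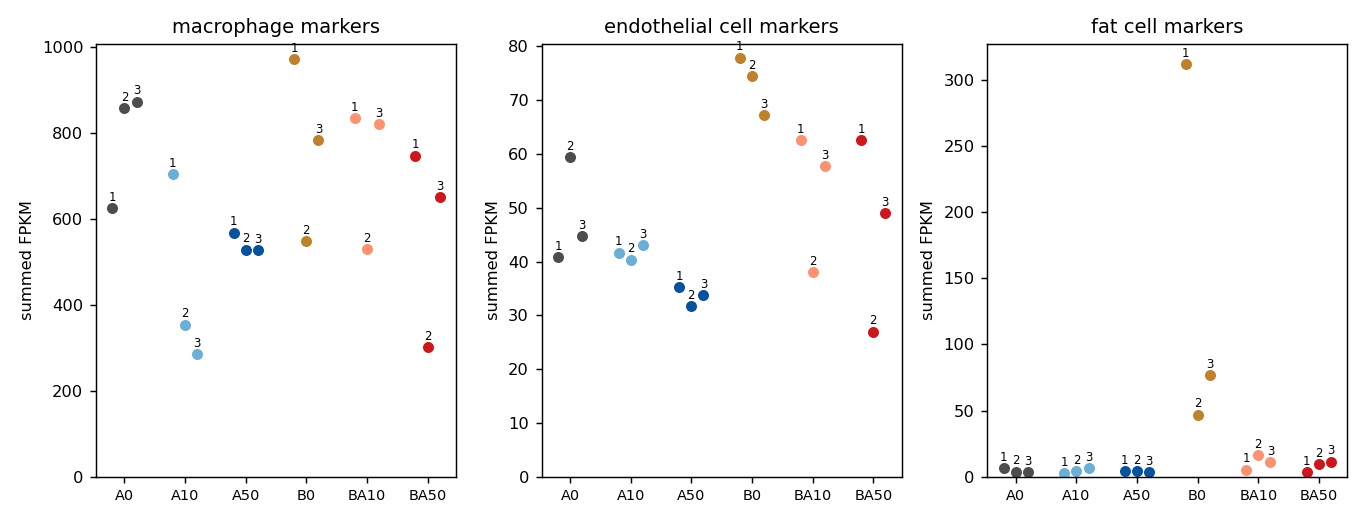
Summed FPKM (vertical axes, each from 0) of 11 macrophage, 5 endothelial and 5 fat cell markers in each sample, with the replicate number above each point. Macrophage sums are lowest in A10 replicate 3 (286.0) and BA50 replicate 2 (300.7), and fat cell sums are high in the B0 samples alone.

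Busulfan was not shown to change any of the 9 genes, while many other genes changed. In the average over the 3 AOS levels, 38.1% of all genes passed a limma adjusted p of 0.05 and 3.61% passed the stricter limits, but none of the 8 tested genes passed either. Of the 8, 4 were lower and the median log2 change was 0.00904, against 0.0120 over all genes. Oasl2 had the only unadjusted p under 0.05 (log2 change -0.31, SE 0.121, limma adjusted p = 0.0598, exact permutation p = 0.038 over 8000 divisions), where 28.0% of all genes were lower at that limit. Unadjusted 95% intervals of the other 7 all included 0, and they reached as far as -0.444 for Ifit1 and 0.519 for Irf7. The macrophage markers had a median log2 change of 0.0531 in this comparison and none of the 11 passed an unadjusted p of 0.05.

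At single AOS levels the stricter limits were passed by 2.54% of all genes in B0 against A0, by 3.01% in BA10 against A10 and by 3.39% in BA50 against A50, and by no gene of the set. Oasl2 in BA50 against A50 was the only case with an unadjusted p under 0.05 (log2 change -0.51, SE 0.210, limma adjusted p = 0.106), where 21.7% of all genes were lower at that limit. Its 3 BA50 samples, at 5.63, 3.66 and 4.57 FPKM, were below the 3 A50 samples. Irf7 was higher in B0 (6.93 ± 2.46 FPKM) than in A0 (4.84 ± 0.919 FPKM; SD, n = 3), but B0 replicate 2, at 4.19 FPKM, lay within the range of A0. Ifi44 had 0.96, 0.51 and 0.74 FPKM in B0, all above the 0.45, 0.45 and 0.41 FPKM of A0, with an exact permutation p of 0.1, the lowest possible for 3 against 3.

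Other genes of the interferon pathway were taken from fixed lists. In the busulfan average all 5 spermatocyte markers were lower at a limma adjusted p under 0.05 (median log2 change -2.70). Spermatid markers did not fall with them, as 0 of 7 were lower (median log2 change 0.388). The part of germ cells in the busulfan values below was not tested. Of 20 interferon ligand genes, 14 were in the table, all 14 stayed below 1 FPKM in every sample, and the highest single value was 0.29 FPKM, for Ifnab. Ifnb1, the beta interferon, was listed at 0 in 12 of 18 samples and reached 0.10 FPKM. None of the ligands could be tested, and the other 6 were not analysed here.

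Of 12 receptors and signal transducers tested, 3 rose in the busulfan average at a limma adjusted p under 0.05 and none fell, against 38.1% of all genes past that limit in either direction. In either direction the share was no larger than among all genes. For rises alone it was 3 of 12 against 2097 of 15790 genes, and this difference was not tested. In lists described below, 1 of 15 sensors and adaptors and 3 of 34 other type I interferon-stimulated genes rose at that limit. The 3 that rose were Il10rb, a shared chain of the lambda interferon receptor (log2 change 0.44, SE 0.104, adjusted p = 0.00387), Ifnar2, a chain of the type I receptor (0.37, adjusted p = 0.0123), and Jak1, a kinase bound to these receptors (0.21, adjusted p = 0.0329). Ifnar2 was at 66.9 ± 3.42 FPKM in A0 and 95.0 ± 4.64 FPKM in B0 (SD, n = 3). With AOS all 12 were lower (median log2 change -0.23), 4 at an unadjusted p under 0.05, against 18.2% of all genes, and none after adjustment.

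Among 15 sensors and adaptors, which detect foreign nucleic acid and pass on the signal, 1 rose and 2 fell with busulfan at a limma adjusted p under 0.05, against 38.1% of all genes. Ticam1, the adaptor of Toll-like receptor 3, rose (log2 change 0.28, adjusted p = 0.00203). Dhx58 (LGP2), a helicase that modulates RNA sensing, fell by 0.47 on the log2 scale (adjusted p = 0.00494), and Cgas, the cytosolic DNA sensor, fell by 0.23 (adjusted p = 0.00658). The adaptor Mavs was higher in BA10 than in A10 (0.63, adjusted p = 0.0337), and its log2 change in the average was 0.27 (adjusted p = 0.0731). Its mean was lowest in A10, at 10.23 FPKM, where the lowest sample was at 6.29 and the median was 11.61. The means were 14.71 in A0, 12.18 in A50, 14.93 in B0, 15.75 in BA10 and 13.73 in BA50.

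The enzymes that attach ISG15 to proteins were represented by 3 tested genes. Herc6, the mouse ligase of that step, fell by 0.66 with busulfan on the log2 scale (SE 0.0682, limma adjusted p = 1.84e-06), from 7.81 ± 1.01 FPKM in A0 to 5.28 ± 0.444 in B0 and from 10.8 ± 0.640 in A50 to 5.73 ± 0.856 in BA50 (SD, n = 3). In the AOS average its log2 change was 0.22 (adjusted p = 0.0787), opposite in sign to all 8 genes of the set. Ube2l6, the conjugating enzyme that works with it, had a log2 change of 0.24 with busulfan (adjusted p = 0.162).

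Of 34 other type I interferon-stimulated genes tested, 3 rose and 2 fell with busulfan at a limma adjusted p under 0.05, a smaller share than the 38.1% of all genes. Those that rose were Ly6e, a surface protein (log2 change 0.46, adjusted p = 0.0349), Ifi27, a mitochondrial or nuclear envelope protein (0.42, adjusted p = 0.00742), and Helz2, a helicase that acts as a transcriptional coactivator (0.19, adjusted p = 0.0487). Epsti1 fell by 0.75 (adjusted p = 0.00170) and Znfx1, an RNA sensor of the helicase family, fell by 0.27 (adjusted p = 0.00762). With AOS, 32 of the 34 were lower and the median log2 change was -0.29. At an unadjusted p under 0.05, 24 of 34 were lower, against 18.2% of all genes, and none passed adjustment. Epsti1 went the other way with AOS (log2 change 0.56, adjusted p = 0.0680), as did Dhx58 (0.38, adjusted p = 0.0762).

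Genes that answer mainly to interferon gamma were similar, with 14 of 15 lower with AOS (median log2 change -0.33), 10 of them at an unadjusted p under 0.05, against 18.2% of all genes, and none after adjustment. With busulfan only Gbp3, a guanylate-binding protein, passed (it fell by 0.34, adjusted p = 0.00957), while Psmb9, an immunoproteasome subunit, had a log2 change of -0.25 (adjusted p = 0.463). The 6 MHC class I genes all had positive values with busulfan (median 0.26) and negative values with AOS (median -0.31), and none passed a limma adjusted p of 0.05. H2-D1 had the largest busulfan value among them (0.48, adjusted p = 0.278), then H2-M3 (0.35, adjusted p = 0.356). Of 5 negative regulators none passed, with Socs3 at 0.22 (adjusted p = 0.282) and Socs1 at -0.20 (adjusted p = 0.110) in the busulfan average.

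**Figure D4:**
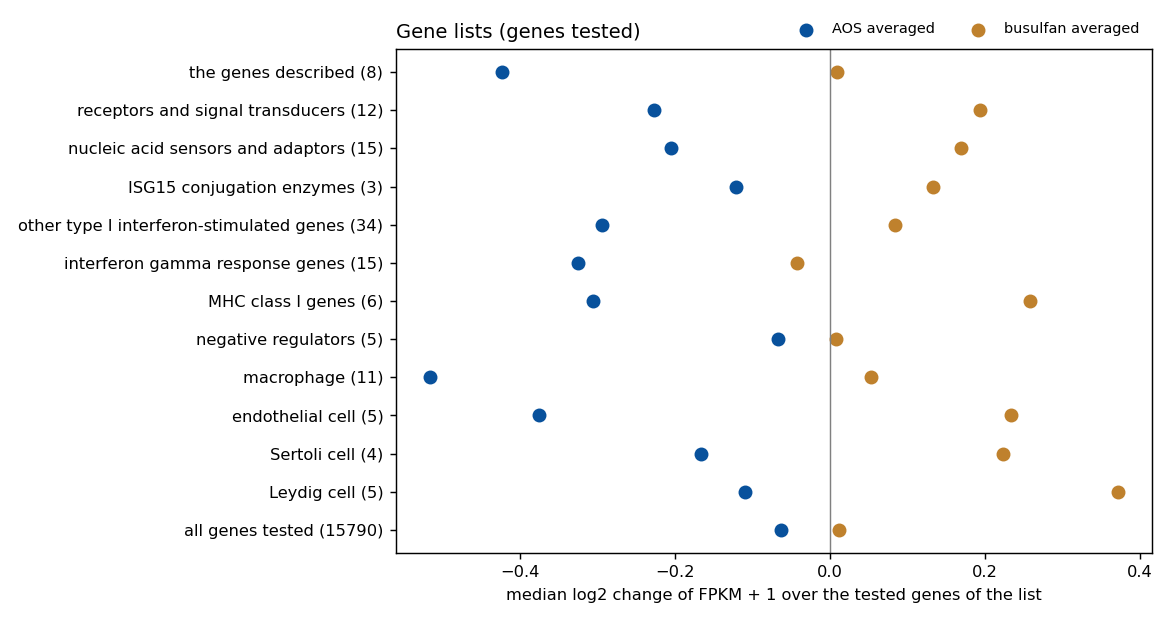
Median log2 change of FPKM + 1 (horizontal axis) over the tested genes of each list, with the number tested in brackets, for the AOS average (blue) and the busulfan average (brown). The 8 genes described stand at -0.42 for AOS and 0.00904 for busulfan, macrophage markers at -0.52 and 0.0531, and all 15790 genes at -0.0633 and 0.0120.

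The 9 genes varied together across the samples. Over the 18 samples, all 36 pairs had a positive Pearson r on the log2(FPKM + 1) scale, with a median of 0.600, a lowest value of 0.131 (Rsad2 and Usp18) and a highest of 0.865 (Isg15 and Bst2). Samples of the same treatment share what the treatment does, so these values describe the 18 libraries. The genes outside the set whose profile was most like the mean profile of the 8 tested genes over the 18 samples were Tead3 (r = 0.931), Sp100 (0.929), Sting1 (0.928), Tmem204 (0.927) and Nid1 (0.924). After the group means were subtracted they were Trim30a (r = 0.948), Zcchc24 (0.948), Pxdn (0.947), Tie1 (0.942) and Lgals9 (0.938). Sp100 and Trim30a are interferon-stimulated genes of the fixed list, Sting1 is the adaptor of the DNA sensor, and Tie1 is a receptor of endothelial cells. Tie1, Tead3, Tmem204, Nid1, Zcchc24, Pxdn and Lgals9 are in none of the interferon lists used here.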

How the data were processed

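RNA-seq values of 18 cultured mouse testis samples, 3 in each of 6 groups, were analyzed, with groups and replicate numbers taken from the sample titles. The authors deposited FPKM per gene and sample. Per the labels' processing notes the tools were HISAT, Bowtie2 and RSEM and the build GRCm38.p5, with no versions, while the supplementary methods describe poly(A) libraries, SOAPaligner and RPKM, so the aligner behind the values is uncertain. FPKM sums were 463970 to 511274 per sample. Read depth is unknown, and precision was judged from replicates.

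The 15790 of 22657 genes that reached 1 FPKM in 3 or more samples were log2(FPKM + 1) transformed and fitted in limma 3.58.1 (R 4.3.3, lmFit and trended eBayes), giving each group its own mean, 12 residual and 2.56 prior degrees of freedom, and Benjamini-Hochberg adjustment over all genes tested. The count-based test of the methods needs read counts, which the FPKM values do not hold. Averages and differences of changes were contrasts of this fit. The script was tested on simulated data. Exact two-sided permutation tests were run on log2(FPKM + 1), exchanging samples within AOS level (8000 divisions) or busulfan level (7056, added after seeing the data). All genes of the set were described. From the pathway lists, genes past a limma adjusted p of 0.05 in any comparison and the 2 with the largest busulfan change per list were named. The members and lists were chosen with earlier results of these data known. Alternatives were a fit of just the compared groups, the replicate number as a block, quantile normalization, a pseudocount of 0.1, no filter, a mean of at least 5 FPKM, median centring, no trend, robust eBayes, each sample left out, and adjusted p under 0.05 with no fold limit. Symbols were found for 20656 of 20811 NCBI gene numbers. Promoter windows were from RefSeq GRCm38.p6. Further steps used SciPy 1.17.1, NumPy 2.4.6, matplotlib 3.10.9 and pandas 2.3.3 under Python 3.11.15.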

Additional observations from a re-analysis of the deposited data

How the results depend on the processing

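No gene of the set was called under any alternative at the stricter limits. A fall of 1 on log2(FPKM + 1) was out of reach for Ifi44. It was nearly so for Ifit1, Rsad2 and Usp18, with means of 0.883, 0.976 and 1.13 FPKM. A pseudocount of 0.1 removes that bound for the 8 tested genes, and none of them was called with it either. Ifi44 was not in that run, so it could not have been called under any alternative. The strict filter kept only Oasl2 and Bst2 of the set. In the AOS average the 8 tested genes stayed lower in every alternative run that held them. Over all genes, the counts called with busulfan moved as follows (B0 against A0, BA10 against A10, BA50 against A50, average): with a strict filter 189, 261, 280 and 320, at adjusted p under 0.05 without a fold limit 2173, 2987, 3143 and 6018, and, with only the groups compared, 58, 49 and 179 without the average. A pseudocount of 0.1 gave 856 in the average and 1 gene in each of A10 and A50 against A0. At adjusted p under 0.05 without a fold limit, 4 genes passed in BA10 against B0, 15 in BA50 against B0 and 7 in the AOS average, and leaving out each sample gave 0 to 1 gene at the stricter limits in each of these.

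The 7 genes past adjusted p 0.05 in the AOS average became 0 with the replicate block, 0 with median centring, 18 with no filter, 156 with a strict filter, 413 with quantile normalization and 11 with no trend, and ran from 0 to 2506 with each sample left out (settings combined after seeing the data). Genes of the set past that limit were 1 with quantile normalization (Oasl2) and 0 to 4 with each sample left out, 2 without A10 replicate 1, 3 without B0 replicate 2 and 4 without BA50 replicate 1. The labels do not say that a replicate number marks a shared batch. Deviations of same-numbered samples correlated at 0.386 for BA50 with B0 and 0.112 for BA10 with B0, but at -0.135 for A10 with A0, -0.00915 for A50 with A0 and -0.232 for B0 with A0, so pairing was not taken as shown for the design. The replicate block called no gene of the set.

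Of 936 single-gene values, 12 took the opposite sign, none by more than 0.107. In the busulfan average these were Ifit3 (0.0274) and Rsad2 (0.107) with quantile normalization and Rsad2 with median centring (0.0357), and, with each sample left out, Rsad2 from -0.0876 to 0.00461 and Bst2 from -0.0307 to 0.172. For AOS they were Usp18 in BA50 against B0 with quantile normalization (0.00304) and, with each sample left out, Usp18 (-0.252 to 0.0887) and Ifit3 (-0.353 to 0.0562) in that comparison and Rsad2 in A10 against A0 (-0.0188 to 0.161) and A50 against A0 (-0.253 to 0.0240). The cause was not tested. Read depth, which is unknown, limits what can be said of Ifi44, Ifit1, Ifit3, Rsad2 and Usp18, all near or below 1 FPKM.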
